A study of Arabidopsis thaliana with 4 samples.

Results

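The serine carboxypeptidase-like (SCPL) genes of Arabidopsis thaliana are numbered SCPL1 to SCPL51. Members were the probe sets that the platform annotation maps to exactly 1 locus whose symbol or synonym is SCPL followed by a number, which gave 29 probe sets for 29 of the 51 loci, out of 22746 probe sets other than controls. Only 2 of the 29, SCPL16 and SCPL18, belonged to the acyltransferase-like clade (SCPL1 to SCPL19), and the other 27 lay between SCPL20 and SCPL50. The remaining 17 loci of the acyltransferase-like clade and 5 of the others are not analysed here. Each of the 29 probe set identifiers carried the plain suffix that Affymetrix gives to sets without a listed shared match.

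Serine carboxypeptidases are enzymes of the vacuole and the secretory pathway that remove amino acids from the carboxyl end of proteins with a catalytic triad of serine, aspartate and histidine. In plants the family has an additional branch that has turned from cutting peptides to joining molecules: these SCPL acyltransferases move an acyl group from a glucose ester to an acceptor. The best known are SNG1 (SCPL8), which makes sinapoylmalate, a sunscreen compound of leaves, and SNG2 (SCPL19), which makes sinapoylcholine in seeds. Among the peptidase-like members, BRS1 (SCPL24) is known as a suppressor of a brassinosteroid receptor mutant when overexpressed, and SCPL49 is named carboxypeptidase Y in the gene table after the vacuolar enzyme of yeast. SNG1, SNG2 and BRS1 are among the loci not analysed here.

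The samples were axillary shoots of Col-0, the standard laboratory accession, taken 24 h after decapitation (2 arrays) and axillary buds of Col-0 taken before decapitation (2 arrays). To decapitate a plant is to cut off its main apex, after which buds lower on the stem often begin to grow. All plants were grown in pots under continuous light and carried no transgene or mutation named in the labels, and their age is not given in the sources used here. Total RNA was hybridized to ATH1 GeneChips, arrays that read each gene with a set of short probes. Decapitated plants were not set against intact plants of the same later time, so decapitation, wounding, further age and tissue make-up cannot be told apart here.

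The deposited values were MAS5 signals, a linear intensity per probe set after mismatch signals have been subtracted, with every array scaled to a trimmed mean of 100. The median signal was 40.9 and 40.6 on the shoot arrays and 46.3 and 43.6 on the bud arrays. Dividing the signal of the actin control at its 3′ end by that at its 5′ end gave 0.990 and 1.14 in shoots against 1.66 and 1.38 in buds, and these did not overlap. An older actin control set gave 2.13 and 3.19 in shoots against 5.81 and 6.67 in buds, a wider gap. The part of this difference in the values below was not tested. Probe sets were tested where their geometric mean signal over the 4 arrays was at least 23.1, the lower bound of the brightest 60%, which left 13648 probe sets. The fit used limma on log2 signals, with p-values adjusted after Benjamini and Hochberg over all 13648 and a threshold of 0.05. Of these probe sets 22.1% were called, 10.2% as higher and 12.0% as lower in the shoots. The number of arrays limits what can be tested: the smallest two-sided p that exact permutation of 2 against 2 arrays allows is 0.333. The smaller limma p-values rest on an assumed normal spread and on variance shared across probe sets.

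Of the 29 members 13 passed the signal filter, all of them from the group SCPL20 to SCPL50. SCPL34 was lower in the shoots, 0 members were called higher, and 12 did not pass. The 1 call of 13, or 7.69%, stands beside the 22.1% of all tested probe sets. Unadjusted limma p-values were under 0.05 for 3 members, SCPL34, SCPL49 and SCPL20, all with lower signals in the shoots. An adjusted p is never below its unadjusted p, so at least 22.1% of all tested probe sets met this cutoff too. The 3 are therefore not read as a result about the family. The median log2 fold change of the 13 was −0.10, against −0.06 over all tested probe sets, and the median of its absolute size was 0.27 against 0.42. The probe sets that pass a filter on mean signal are a selection, so these figures describe the bright members and not the family.

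**Figure D1:**
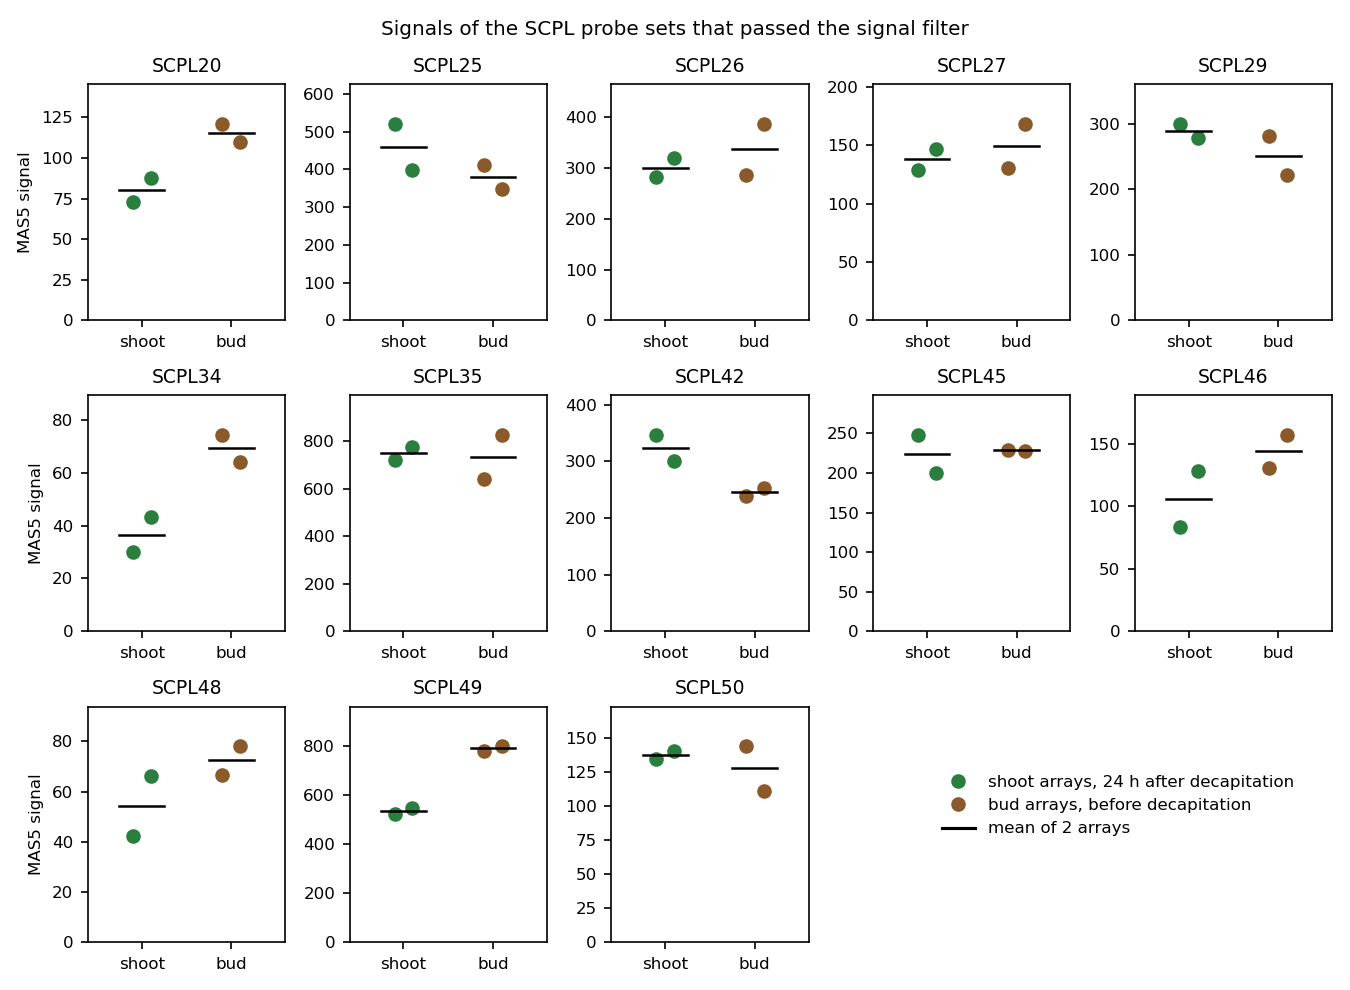
MAS5 signal (linear scale from 0, a separate scale for each gene) of the 13 SCPL probe sets that passed the signal filter, with 2 shoot arrays to the left of 2 bud arrays and a bar at the mean of each pair. The shoot and bud points are separated in SCPL20, SCPL34, SCPL42, SCPL46, SCPL48 and SCPL49 and overlap in the other 7.

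SCPL34 (AT5G23210) encodes a peptidase-like member. Its signal was 29.9 and 43.1 on the shoot arrays, against 74.3 and 64.1 on the bud arrays. Both shoot values lay below both bud values. The mean was 36.5 ± 9.29 in shoots and 69.2 ± 7.23 in buds (SD, n = 2 each). The fitted signal fell to 0.520 times the bud level (log2 fold change −0.94, SE 0.27, limma adjusted p = 0.0416), with a 95% interval of the log2 value from −1.57 to −0.32. The call stood close to the threshold and was lost under several other settings. The adjusted p was 0.0578 with quantile normalization, 0.0588 with array medians set equal, 0.0700 with scaling on spiked-in controls and 0.0694 with no signal filter. Without shoot array 1 it was 0.238, without bud array 1 it was 0.136 and without bud array 2 it was 0.0551. The log2 fold change was below 0 in each of these fits. With no filter or with an array left out this follows from the separated values, so it adds no support.

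SCPL49 (AT3G10410), named carboxypeptidase Y in the gene table, is among the members that resemble the vacuolar yeast enzyme. It had signals of 521 and 549 on the shoot arrays, against 779.98 and 800.4 on the bud arrays. The 2 arrays of each group lay close together and the groups were well apart. The mean was 535 ± 19.7 in shoots and 790.2 ± 14.4 in buds (SD, n = 2 each), a log2 fold change of −0.56 (SE 0.20) with a 95% interval from −1.02 to −0.11. With a limma adjusted p of 0.0755 it did not pass the threshold. It passed with quantile normalization (adjusted p = 0.0254), where SCPL34 did not. SCPL48 (AT3G45010), whose symbol stands next to it in the numbering, had 42.2 and 66.3 in shoots against 66.6 and 78.2 in buds. The upper shoot value and the lower bud value of SCPL48 nearly touched, and its log2 fold change of −0.45 did not pass (SE 0.28, limma adjusted p = 0.281).

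**Figure D2:**
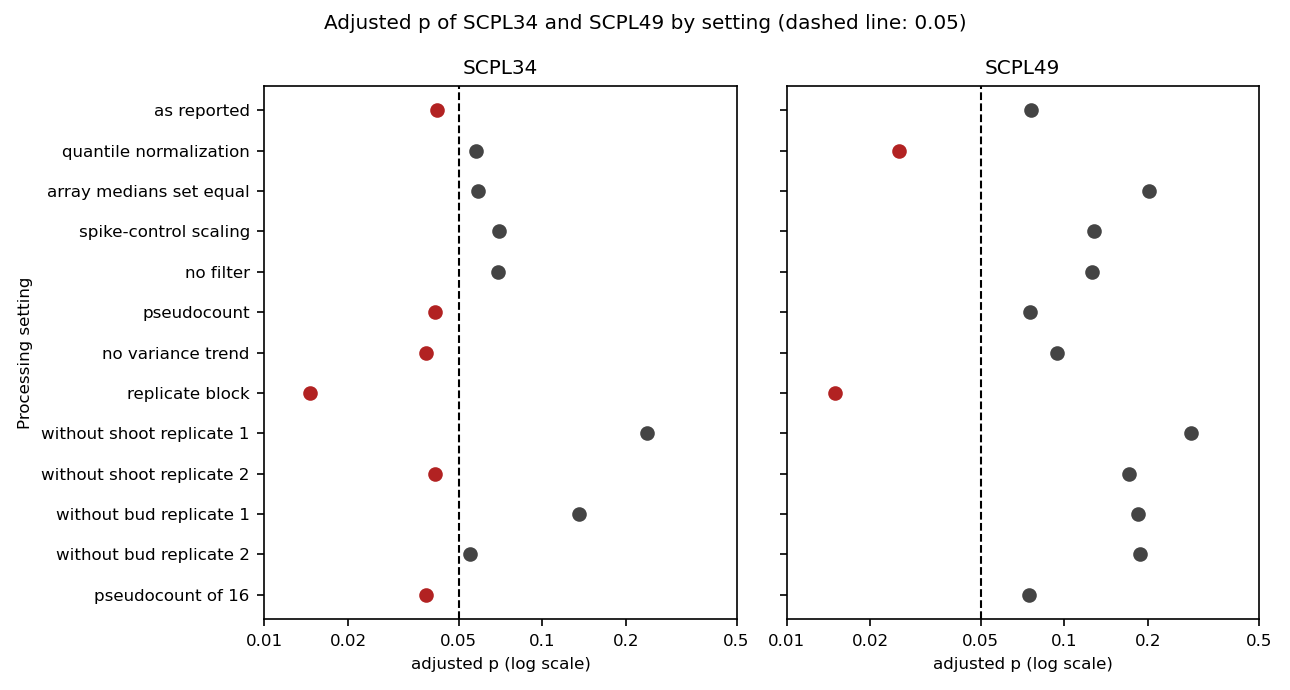
Adjusted p (log axis) of SCPL34 and SCPL49 under each processing setting listed down the page, with the threshold of 0.05 as a dashed line and settings that pass in red. SCPL34 moved from 0.0416 as reported to 0.238 without shoot array 1, and SCPL49 passed with quantile normalization and with a replicate block.

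A further pair of members had both shoot signals below both bud signals without passing the test. SCPL20 (AT4G12910) had signals of 72.95 and 87.4 in shoots, against 121 and 110 in buds, with a log2 fold change of −0.53 (SE 0.22, limma adjusted p = 0.115). SCPL46 (AT2G33530) had 83.8 and 129 in shoots against 131 and 157 in buds, with a log2 fold change of −0.47 (SE 0.26, adjusted p = 0.223 in the same limma fit). The gap between the groups was wide for SCPL20 relative to its replicates and narrow for SCPL46, whose 2 shoot arrays differed by more than its nearest shoot and bud arrays. All 5 tested members with both shoot signals below both bud signals had their lowest signal on shoot array 1, as did SCPL26 and SCPL27. Without that array the log2 fold changes were −0.68 for SCPL34, −0.16 for SCPL46 and −0.12 for SCPL48, so those of SCPL46 and SCPL48 moved by more than 1.5 times. In the same fit they were −0.40 for SCPL20 and −0.53 for SCPL49.

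SCPL42 (AT5G42240) was the only tested member with both shoot signals above both bud signals. Its signal was 347 and 300 on the shoot arrays, against 239 and 253 on the bud arrays. The mean was 323 ± 32.9 in shoots and 246 ± 10.4 in buds (SD, n = 2 each). The log2 fold change of 0.39 (SE 0.20) had a 95% interval from −0.06 to 0.84 and a limma adjusted p of 0.185. Altogether 6 of 13 tested members, or 46.2%, did not overlap between the groups, where 65.2% of all tested probe sets did not overlap. Both shoot arrays were the lower ones in 5 members and the higher ones in 1, beside 35.5% and 29.7% of all tested probe sets.

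The other 7 tested members, SCPL25, SCPL26, SCPL27, SCPL29, SCPL35, SCPL45 and SCPL50, overlapped between the groups. Their log2 fold changes lay between −0.15 for SCPL26 and 0.27 for SCPL25, with limma adjusted p-values between 0.418 and 0.914. SCPL35 (AT5G08260) had signals of 720.1 and 775 in shoots, against 640 and 826 in buds. Its bud arrays enclosed its shoot arrays. SCPL45 (AT1G28110) had 248 and 200.1 in shoots against 229 and 228 in buds, so that here the shoot arrays enclosed the bud arrays. SCPL25 (AT3G02110) had 521 and 398 in shoots against 411 and 348 in buds. SCPL29 (AT4G30810) had 300.2 and 278 in shoots against 282 and 221 in buds. In both of these genes the higher shoot array exceeded each bud array, and the lower shoot array fell between the bud arrays. SCPL26 (AT2G35780) had 282 and 320.3 in shoots against 287 and 387 in buds. SCPL27 (AT3G07990) had 129 and 147 in shoots against 130.1 and 168 in buds. SCPL50 (AT1G15000) had 135 and 140.1 in shoots against 144 and 111 in buds. None of these 3 separated the groups, and in each the bud arrays were farther apart than the shoot arrays.

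A miss of the threshold does not show that a gene was unchanged, so the intervals are given as well. For 8 of the 13 members, or 61.5%, the 95% interval of the log2 fold change lay wholly between −1 and 1, that is, within a 2-fold change either way. The same held for 50.7% of all tested probe sets. These 8 were the 7 overlapping members and SCPL42. The intervals of the other 5 members, SCPL20, SCPL34, SCPL46, SCPL48 and SCPL49, reached below −1, and no interval reached 1. Among the 12 members that were not called, the lowest bound was −1.09 for SCPL48 and the highest 0.84 for SCPL42. The 2 arrays of a group differed by a median factor of 1.16 in shoots and 1.18 in buds over the 13 members, and by at most 1.57 in shoots (SCPL48) and 1.35 in buds (SCPL26).

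**Figure D3:**
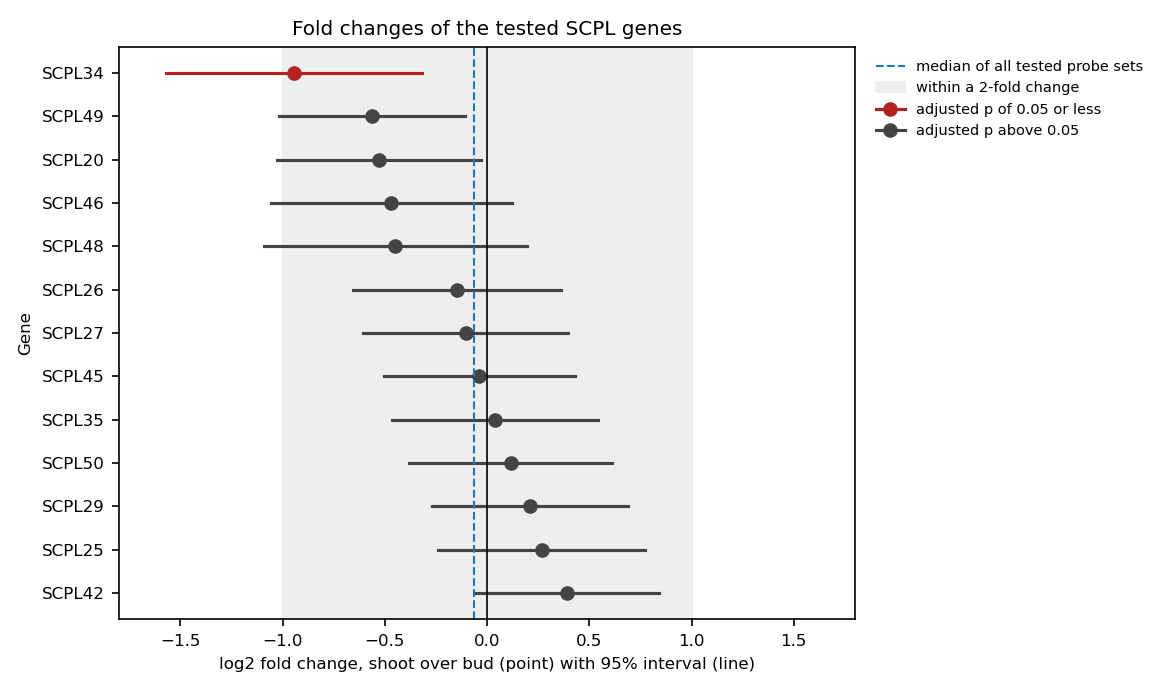
Log2 fold change of shoots over buds (point) with its 95% interval (line) for the 13 tested SCPL genes, ordered from lowest at the top, with a grey band for changes within 2-fold and a dashed line at the median of all tested probe sets (−0.06). SCPL34, in red, is the only gene with an adjusted p of 0.05 or less, and 5 intervals reach below −1 while none reaches 1.

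The other 16 members were dim, with signals between 0.589 and 29.7, and were not tested in the main comparison. As a guide to such low signals, 27 probe sets for bacterial control transcripts lay between 0.1998 and 10.2 over the 4 arrays; whether those transcripts were added is not given in the sources used here. Measured against the highest control of each array, SCPL40, SCPL43 and SCPL44 were above it on all 4 arrays, SCPL16, SCPL21, SCPL28, SCPL30, SCPL32, SCPL33 and SCPL47 on 1 to 3 arrays, and SCPL18, SCPL22, SCPL23, SCPL31, SCPL38 and SCPL41 on 0 arrays. Detection calls were not used here, and a dim probe set does not show that its gene is silent. Replicates scattered widely at these levels: SCPL23 had 0.721 and 7.39 in shoots against 7.11 and 0.589 in buds. SCPL28 had 8.68 and 13.5 in shoots against 10.7 and 2.29 in buds. No order between the groups can be read from either gene.

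Among the dim members, 7 of 16 did not overlap between the groups, or 43.8% beside 39.9% of all 9098 probe sets below the filter. The shoot arrays were the lower ones for SCPL16, SCPL18, SCPL22, SCPL31, SCPL32 and SCPL44, and the higher ones for SCPL33. Of all probe sets below the filter, 26.6% had the shoot arrays lower and 13.4% had them higher. Dim probe sets thus leaned to lower shoot signals in general. SCPL31 (AT1G11080) had 0.911 and 1.03 in shoots against 6.58 and 7.95 in buds. All 4 values of SCPL31 lay within the range of the bacterial controls, so no fold is given. With no filter its limma adjusted p was 0.0533. In further unfiltered fits of all arrays it lay between 0.0371 with a replicate block and 0.162 with no variance trend. SCPL32 (AT1G61130) had 5.50 and 7.04 in shoots against 9.71 and 8.46 in buds, with the bud values just above the highest control of their arrays. SCPL33 (AT3G17180) had 8.53 and 10.4 in shoots against 7.42 and 4.34 in buds, a small separation around the top of the control range. SCPL44 (AT1G43780) had 9.82 and 10.6 in shoots against 17.9 and 11.5 in buds, where the lower bud value stood close to the shoot values.

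**Figure D4:**
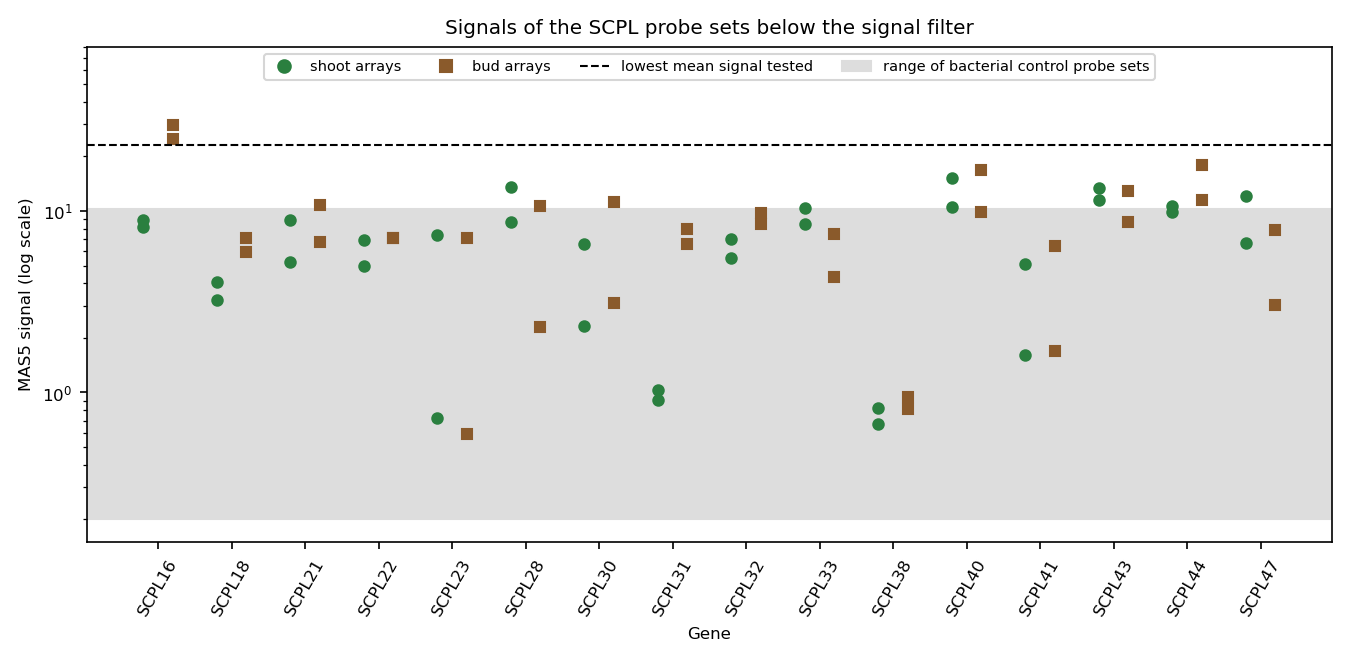
MAS5 signal (log axis) of the 16 SCPL probe sets below the signal filter, with shoot arrays as green circles to the left of bud arrays as brown squares for each gene, a dashed line at the lowest mean signal tested (23.1) and a grey band for the range of the bacterial control probe sets (0.1998 to 10.2). SCPL16 in buds is the only case above the dashed line.

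The comparison of the acyltransferase-like clade with the other members rested on 2 dim probe sets and gave no tested difference. SCPL16 (AT3G12220) had signals of 8.17 and 8.87 on the shoot arrays, against 25.001 and 29.7 on the bud arrays. Both bud values stood above every bacterial control of their arrays, and both shoot values lay within the range of the controls. The mean was 8.52 ± 0.4998 in shoots and 27.4 ± 3.33 in buds (SD, n = 2 each), and the log2 fold change was −1.68, a size that is uncertain because the shoot level may be background. SCPL16 was not tested in the main comparison; when no filter was applied its limma adjusted p was 0.0373, and SCPL34 was not called there. That fit called 10.1% of 22746 probe sets, 4.45% as higher and 5.6% as lower in the shoots. Still with no filter, SCPL16 lost the call with no variance trend (limma adjusted p = 0.162) and with spike-control scaling (limma adjusted p = 0.0557). It kept the call under the other scalings, the pseudocounts and the replicate block. Without any filter and with an array left out, the adjusted p of SCPL16 was 0.151 without shoot array 1, 0.0796 without shoot array 2, 0.0963 without bud array 1 and 0.133 without bud array 2.

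SCPL18 (AT1G33540) had signals of 4.05 and 3.24 in shoots against 7.12 and 5.92 in buds. All 4 values lay within the range of the bacterial controls, so their order between the groups is not read as a change, and with no filter its limma adjusted p was 0.452. Among the members outside the clade, 1 had a lower log2 fold change than SCPL16 and 2 had a lower one than SCPL18. The median log2 fold change was −1.26 over the 2 acyltransferase-like members and −0.15 over the 27 others. A pseudocount of 16, chosen after seeing the data, brought these medians to −0.51 and −0.047. Since the shoot signals of SCPL16 and all signals of SCPL18 lay within the range of the controls, no difference between the clade and the others is read from these medians.

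Several SCPL genes lie side by side on the chromosomes, and the gene table holds 14 pairs of neighbouring SCPL loci. Both genes were measured in 2 of these pairs. SCPL28 and SCPL26 are neighbours on chromosome 2. SCPL26 passed the filter and did not separate the groups, and SCPL28 was dim, with the scattered values given above. The neighbours SCPL22 and SCPL23, also on chromosome 2, were both dim; SCPL22 had 6.89 and 4.98 in shoots against 7.09 and 7.06 in buds. The remaining dim members, SCPL21, SCPL30, SCPL38, SCPL40, SCPL41, SCPL43 and SCPL47, overlapped between the groups, with signals from 0.669 for SCPL38 to 16.7 for SCPL40.

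The enzymes that supply SCPL acyltransferases with glucose esters belong to the UGT84A family, which glucosylates sinapate and related acids. In a list of the sinapate and phenylpropanoid route, 7 of 26 loci had a named probe set and 6 were tested: 2 were higher in the shoots, 0 were lower and 4 did not pass, beside 10.2% and 12.0% of all tested probe sets called higher and lower. Their median log2 fold change was −0.21 and depended on the processing: it was 0.36 with the stricter filter, which tests fewer of them, and −0.37 to −0.043 with an array left out. The 4 that did not pass, HCT, ALDH2C4, UGT84A3 and UGT84A4, had log2 fold changes below 0, from −0.71 to −0.08. HCT had signals of 370 and 469 in shoots against 564 and 495 in buds (log2 fold change −0.34, limma adjusted p = 0.282). ALDH2C4 had 205 and 295 in shoots against 334 and 328 in buds (−0.43, adjusted p = 0.209 in the same fit). The 2 that rose were UGT78D1 (2.09-fold, limma adjusted p = 0.00849) and UGT78D2 (2.14-fold, adjusted p = 0.00880 in the same fit). Both attach sugars to flavonoids and are not the enzymes that make these glucose esters. UGT78D1 had signals of 357 and 356 in shoots against 172 and 169 in buds. UGT78D2 had 267 and 299.6 in shoots against 127 and 138 in buds. Both genes separated the groups with a wide gap, and without shoot array 1 UGT78D1 missed the threshold (limma adjusted p = 0.0551).

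The UGT84A genes themselves, named here for their role after their values were seen, gave no call in the main comparison. UGT84A3 had signals of 51.1 and 46.2 in shoots against 92.7 and 68.1 in buds, with a log2 fold change of −0.71 (limma adjusted p = 0.0763). UGT84A4 had 26.0 and 32.2 in shoots against 30.4 and 30.5 in buds, and its groups overlapped. UGT84A1 lay below the filter, with 36.2 and 13.2 in shoots against 4.06 and 1.25 in buds, so that its groups separated while its shoot arrays differed widely. With no filter UGT84A1 was called as higher in the shoots (limma adjusted p = 0.0414), from bud signals within the range of the bacterial controls. Among acyltransferases of the BAHD family, which use coenzyme A esters in place of glucose esters, 5 of 10 loci had a named probe set and 1 was tested. That gene, BAT1, had a log2 fold change of −0.57 and did not pass (limma adjusted p = 0.271). Leaving out shoot array 1 gave −1.02 for BAT1 and leaving out shoot array 2 gave −0.12.

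Other proteases of the vacuole and the cell wall were set beside the peptidase-like members. Of 20 listed loci 7 had a named probe set and 4 were tested, of which 1 was lower in the shoots and 3 did not pass, beside 12.0% of all tested probe sets called lower. GAMMA-VPE, a vacuolar processing enzyme that matures and activates other vacuolar proteins, fell to 148 and 166 in shoots, against 998 and 931 in buds (log2 fold change −2.62, limma adjusted p = 0.00127). BETA-VPE, its relative best known from seeds, had 41.2 and 38.6 in shoots against 104.5 and 31.2 in buds, a spread between bud arrays that left the groups overlapping (limma adjusted p = 0.481). Without bud array 2 BETA-VPE was called as lower in the shoots (limma adjusted p = 0.0113), and without bud array 1 its log2 fold change was 0.35 (adjusted p = 0.519), in the opposite direction. Of the brassinosteroid list, set beside the family for BRS1, 1 of 38 loci had a named probe set, BRL1, which lay below the filter.

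Few markers of the sampled tissues had a named probe set. Of 18 meristem and axillary bud markers, LAS and CLV3 had one; LAS, which acts in the formation of axillary meristems, had 19.6 and 16.1 in shoots against 15.4 and 16.7 in buds, and CLV3, a stem cell marker, lay between 1.06 and 7.32. The summed signal of 3 photosynthetic leaf markers was 2163 and 1817 in shoots against 1658 and 1715 in buds, and none of the 3 passed the test. Their log2 fold changes were 0.57 for LHCB4.1, 0.08 for PSAE-1 and −0.03 for RCA, so the 3 did not rise together. LHCB4.1 passed as higher in shoots with spike-control scaling (log2 fold change 0.69, limma adjusted p = 0.00992). With array medians set equal it did not pass at a similar size (0.71, limma adjusted p = 0.0704). Spike-control scaling also took GAMMA-VPE to a limma adjusted p of 1.4e-18 at a log2 fold change of −2.49. Its p-values are therefore not comparable in size with those of the main fit. The summed signal of 3 guard cell lineage markers was 164 and 140.2 in shoots against 116 and 169 in buds. The 2 tested, SPCH (log2 fold change 0.43) and FMA (−0.19), did not pass. The trichome marker TRY, below the filter, had 17.7 and 17.5 in shoots against 32.5 and 26.1 in buds, and none of 17 vascular and fibre markers had a named probe set. In such bulk samples a smaller share of the cells that express a gene and less RNA per cell cannot be told apart, and the part of tissue make-up in the SCPL values was not tested.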

How the data were processed

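Buds before decapitation (2 arrays) and shoots 24 h after it (2 arrays) were grouped by the sample titles. The deposited values are probe set intensities that the authors made with MAS5 and GCOS according to the submitters' processing notes, which name no versions. The trimmed mean of each array was 100, so a shift of all RNA together is not visible. Genes were named through a platform annotation and the TAIR10.1 gene table, which matched 13436 of 22746 probe sets to 1 locus; probe sets naming an SCPL gene and another gene (2) were left out.

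Log2 signals were compared in R 4.3.3 using lmFit and eBayes of limma 3.58.1, with an intensity trend and without further scaling. The fit covered the 13648 probe sets in the upper 60% of mean signal. It was also run on simulated data with independent normal noise. These arrays may depart from that setting, so the simulation is not used as support. Nothing in the labels says that replicate arrays came from separate plants, so p-values measure only the spread between arrays, which may be technical. Alternatives covered scaling, filter, pseudocounts (0.910 and 16), variance trend, replicate block and leaving out each array. Every member was named. Of the related lists, up to 4 tested loci each were named by smallest p and largest change. Outside this rule, HCT, ALDH2C4, the UGT84A genes, RCA, BRL1, LAS, CLV3 and TRY were named as well. Members and lists were chosen with earlier results of these data known. A listed symbol that the gene table gives to another gene (FDH) was dropped. No protein or promoter sequences were used here.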

Additional observations from a re-analysis of the deposited data

How the results depend on the processing

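Over the 13 tested members, 147 of 167 alternative fits left the direction and the side of the threshold as reported. SCPL34 kept its direction and missed the threshold with quantile normalization (log2 fold change −0.80), array medians set equal (−0.80), spike-control scaling (−0.82) and no filter (−0.94), and ranged from −1.20 to −0.68 with 1 array left out. The number of SCPL calls was 0 with array medians set equal, spike-control scaling or the stricter filter (upper 40%, which removes SCPL34), 2 with a replicate block, and 0 to 1 with an array left out; the 1 call with quantile normalization was SCPL49 (−0.64) and with no filter SCPL16. Members near 0 changed sign without a call: SCPL27 (0.037 with medians, 0.019 with spikes), SCPL45 (0.10 and 0.086) and SCPL35 (−0.023 with quantiles). With an array left out, SCPL25 ranged from 0.072 to 0.46, SCPL29 from 0.034 to 0.38, SCPL26 from −0.37 to 0.070, SCPL27 from −0.29 to 0.081, SCPL35 from −0.14 to 0.22, SCPL45 from −0.19 to 0.12 and SCPL50 from −0.070 to 0.30. The median of the acyltransferase-like pair was −1.05 with quantiles, −1.12 with medians, −1.14 with spikes, −1.14 with the pseudocount of 0.910, −0.51 with that of 16 and −1.31 to −1.21 with an array left out. That of the others was −0.028, −0.0068 and −0.025 under these scalings, −0.037 with the stricter filter and −0.20 to −0.0093 with an array left out. These scalings moved the median of all tested probe sets from −0.06 to between 0.00 and 0.08, and the share of calls that were higher from 45.9% to 61.1% with medians set equal and 58.6% with spikes. All calls numbered 3023 as reported (1388 higher, 1635 lower), 4657 with a replicate block (2109 and 2548), and 662 to 2649 with an array left out (230 to 1181 and 432 to 1468), the lowest without shoot array 1; without bud array 1 they numbered 1900. Calls in the related lists were 3 as reported, 5 with the block, which added UGT84A3 (adjusted p = 0.0275) and LHCB4.1 (adjusted p = 0.0181), and 2 to 4 with an array left out. Where not given by the construction, the cause was not tested.

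The replicate numbers are shared by the groups, but nothing in the labels pairs the arrays; deviations of same-numbered arrays correlated at r = 0.23 across probe sets. With the replicate block SCPL34 (adjusted p = 0.0146) and SCPL49 (adjusted p = 0.0150) passed. Signals near those of the bacterial controls limit what can be said of 16 members.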
